A study of Arabidopsis thaliana with 8 samples.

Results

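Nuclei that carry transcripts of opposite sides of the young Arabidopsis seed were set against each other. The seed coat side held nuclei with reads from at least 2 of 6 genes: AT3G05460, AT5G63087, AT1G58055, AT5G54220, AT1G14455 and AT5G46960. These were taken as marks of the maternal tissue around the embryo. The suspensor side held nuclei with no read from these 6 genes or from the quiescent centre gene WOX5 (AT3G11260), and with reads from at least 3 of 5 genes that mark the suspensor: WOX8 (AT5G45980), CLSY1 (AT3G42670), DML3 (AT4G34060), YUC3 (AT1G04610) and FUS3 (AT3G26790). Of 744 nuclei, 534 were retained with at least 100000 counts and 1000 detected features. The seed coat side had 100 of them, the suspensor side 99 and neither side 335. The members were chosen by the measured counts of these 12 rule genes and by depth, so their values are a description, and they were left out of every test.

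The series measured RNA in single nuclei from seeds with globular embryos of Arabidopsis thaliana accession Col-0, with 93 nuclei sorted to each of 8 plates and Smart-seq2 used for the libraries. Nuclei were sorted by DNA content and by nuclear GFP under the embryonic WOX2 promoter. The labels give the genotype as wild type, while the growth protocol names Col-0 plants with the pWOX2::H2B-GFP, pWOX2::tdTomato-RCI2b transgenes or with none. All plates were of 1 condition, and the plate was the replicate. With both sides present on each plate, p-values measured how the difference between the sides varied from plate to plate. A plate pooled nuclei from many seeds, and the files do not tie a nucleus to a plant.

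The seed coat grows from the integuments of the ovule and is wholly maternal. Its innermost layer, the endothelium, makes proanthocyanidins, the condensed tannins that brown the seed, by a branch of flavonoid synthesis under the MYB factor TT2, the bHLH factor TT8 and the WD40 protein TTG1. The suspensor is the short file of cells that joins the embryo proper to the mother. It derives from the basal daughter of the zygote, is marked by the homeobox genes WOX8 and WOX9, carries auxin towards the embryo proper through PIN7, and later dies.

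The rule genes divided the sides as they were chosen to. Each of the 6 seed coat rule genes had reads in 44 to 69 of the 100 nuclei of the seed coat side, led by AT5G63087, which encodes a thionin-like protein, and in 8 to 32 of the 335 other nuclei. On the suspensor side DML3, a DNA glycosylase that removes methylcytosine, had reads in 96 of 99 nuclei, CLSY1, a chromatin remodeller of RNA-directed DNA methylation, in 89, FUS3, a B3 factor of embryo identity, in 82, WOX8 in 73 and the auxin synthesis gene YUC3 in 69. These 5 genes were not confined to that side. On the seed coat side they had reads in 30 to 48 nuclei each, and 38 of the 100 nuclei had reads from at least 3 of them, of which 24 were among the 46 seed coat side nuclei of plate 4. Below, these 38 are also called the nuclei with suspensor rule genes. The other 62 had reads from fewer than 3 of the genes, and not always from none. The median summed level of the 5 genes was 2209 CPM (counts scaled to the total of nuclear genes, as is usual for sequencing depth) in these 38 nuclei and 0.529 CPM in the other 62. Just inside the threshold for the seed coat side, the 41 nuclei with 2 rule genes had a median of 269 CPM of BAN, a gene outside the rule, and just outside it the 122 nuclei with 1 rule gene had 28.3 CPM. Of the nuclei with no seed coat rule gene and no WOX5, the 29 with 3 suspensor rule genes summed to a median of 2703 CPM over these genes, and the 20 with 2, outside the threshold, to 413 CPM.

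Marker lists outside the rule showed transcripts of other cell types on both sides. A list of 12 seed coat markers, most of them also in the lists described below, summed to a median of 2983 CPM per nucleus on the seed coat side, 459 CPM on the suspensor side and 832 CPM in the other nuclei. A list of 8 suspensor markers summed to 247, 1655 and 0 CPM in the same order. Most of these 8 were localized by the study, which chose them on these nuclei, so the sum is no independent evidence. COBL6 had reads in 34 of 100 nuclei of the seed coat side and 33 of 99 of the suspensor side. AT5G61412 had a higher mean per nucleus on the seed coat side, 417.5 against 313.2 CPM. The means of the other members were higher on the suspensor side. Embryo proper markers, 20 genes, summed to 2111 CPM on the seed coat side and 1471 CPM on the suspensor side, against 2232 CPM in the other nuclei. Of 11 endosperm markers, 8 had no read on the suspensor side, 2 had none on the seed coat side and 4 had none in the other nuclei. Their summed medians were 0, 16.6 and 0 CPM in the same order. FWA had reads in 16, 0 and 6 nuclei of the seed coat side, the suspensor side and the others. WRKY10 had them in 12, 0 and 0. SUC5 was read on both sides, in 38 of 100 and 30 of 99 nuclei. The 9 columella and quiescent centre markers summed to 1054 CPM on the suspensor side, 465 CPM on the seed coat side and 566.5 CPM in the other nuclei. Their part in the results was not tested. The sort reporter had reads in 14 of 100, 9 of 99 and 51 of 335 nuclei. The names seed coat side and suspensor side are therefore kept here for what the rule selects. The former held nuclei with seed coat and suspensor transcripts together, and reads of endosperm genes. Losses of a call without the nuclei that had suspensor rule genes are given beside the genes.

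**Figure D1:**
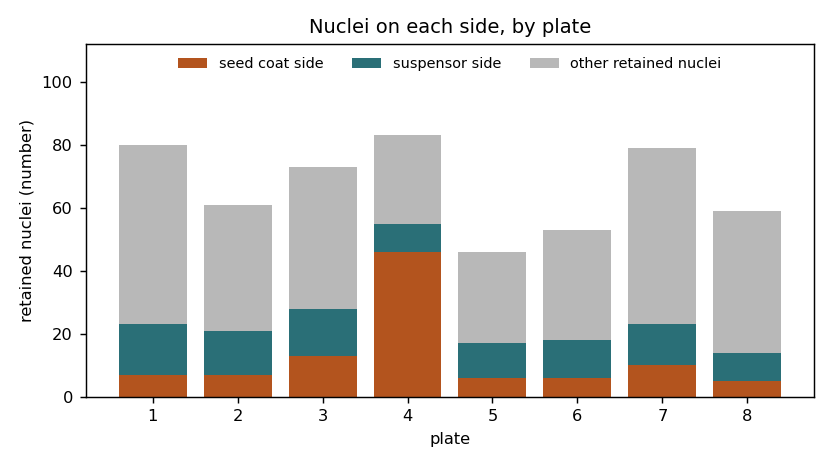
Number of retained nuclei on each of the 8 plates (bars from 0), divided into the seed coat side, the suspensor side and the other retained nuclei. Plate 4 holds 46 of the 100 nuclei of the seed coat side, while the other plates hold 5 to 13 each; the suspensor side has 9 to 16 nuclei on every plate.

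The 46 seed coat side nuclei of plate 4 were 55.4% of the retained nuclei of that plate, while the share on the other plates lay between 8.48% and 17.8%. The suspensor side took 10.8% to 23.9%. Both sides had at least 5 nuclei on every plate, all 8 plates entered each comparison, and no nucleus name occurred on 2 plates. Nuclei of the seed coat side were sequenced more deeply, with a median of 663553 counts against 421775, higher on 8 of 8 plates (mean difference of the plate medians 217660 ± 138020 counts, SD, n = 8; exact two-sided sign-flip permutation test p = 0.00781, the smallest it can give, 0.0312 adjusted over 4 measures). Their median number of detected features was 4018.5 against 2571, higher on 7 of 8 plates (exact test p = 0.0234, 0.0469 adjusted). With every nucleus thinned to 100000 counts the difference in features was 763 (0.0703 adjusted). The rule needs reads on the seed coat side, and both reads and the absence of reads on the suspensor side. Membership is thus not independent of depth or of detected features. No difference between cell types is read from these tests. The chloroplast share of counts was 1.99% and 1.24% (exact test, 0.0625 adjusted), and the mitochondrial share 7.95% and 3.68% (exact test, p = 0.328). Less RNA per nucleus and fewer nuclei of a type within a sum cannot be told apart in the sums that follow.

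Of 11309 genes tested with edgeR on counts summed per side and plate, 71 were higher on the seed coat side and 62 were higher on the suspensor side at an adjusted p under 0.05. These are 0.628% and 0.548% of the genes tested, 1.18% together. Among all genes the median log2 difference was 0.13, and 1143 genes had an unadjusted p under 0.05. Of the 71 genes, 33 were higher on all 8 plates, and of the 62, 42 were lower on all 8. Plate values of both sides stood wholly apart for 10 of the 71 and 15 of the 62 genes, where 0.539% of all genes tested did. The counts depended on how the spread was modelled: without the plate as a block 17 and 7 genes passed, with limma 1416 and 307, and with DESeq2 1245 and 839. Without the 38 seed coat side nuclei that had at least 3 suspensor rule genes, 126 and 283 genes passed, and without plate 4, 34 and 68. The former subset was chosen on the values of rule genes, so that no difference in suspensor genes is read from it.

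Synthesis of flavonoids and proanthocyanidins was the listed program with the most calls between the sides. Of 15 listed genes 13 were tested, 7 were higher on the seed coat side and none was higher on the suspensor side, with a median log2 difference of 3.02 against 0.13 over all genes. BAN (AT1G61720), the anthocyanidin reductase that makes the precursor of proanthocyanidins, led by test. Its level per plate ranged from 245 CPM through a median of 1031 to 2942 CPM on the seed coat side, and from 30.9 through 66.8 to 264 CPM on the suspensor side. The seed coat side was the higher on every plate, although the 2 ranges met at their ends, and the fitted log2 difference was 3.71 ± 0.51 (SE; adjusted p = 8.9e-06). Set against the nuclei of neither side, none of the 13 genes passed on the seed coat side, and 2 were lower on the suspensor side. Over all genes tested, 0.0416% passed in the former comparison and 4.21% were lower in the latter.

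GSTF12 (AT5G17220, also TT19), a glutathione transferase needed to bring flavonoids to the vacuole, ranged from 182 through 462 to 1326 CPM on the seed coat side and from 2.48 through 40.01 to 132 CPM on the suspensor side. These plate values did not overlap, and the difference was 4.25 ± 0.78 (SE; adjusted p = 0.0012). LDOX (AT4G22880), the dioxygenase that forms anthocyanidins, lay at 178, 891 and 1630 CPM (lowest, median and highest plate) against 6.86, 119 and 196 CPM. It was higher on every plate, by 3.08 ± 0.58 on the log2 scale (SE; adjusted p = 0.0016). CHS (AT5G13930), the first enzyme of the pathway, was read more widely, at 609, 2007 and 4244 CPM against 174, 435 and 1278 CPM, and was higher on 7 of 8 plates by 1.78 ± 0.39 (SE; adjusted p = 0.0084). TT7 (AT5G07990), the flavonoid 3′-hydroxylase, was higher by 3.03 ± 0.73 (SE; adjusted p = 0.022) but on 6 of 8 plates only. On plate 3 it lay at 613 CPM on the seed coat side and 1268 CPM on the suspensor side, and on plate 8 at 102 and 249 CPM. Over all plates, 1 nucleus gave 9429 of its 14199 counts on the suspensor side. DFR (AT5G42800), which reduces dihydroflavonols, and F3H (AT3G51240), which supplies them, were also called, with differences of 3.02 and 2.71. Both were named after their values were seen, and their calls were lost without plates 4 and 7 for DFR and without plates 2, 3, 4, 6, 7 and 8 in turn for F3H (adjusted p of up to 0.0735 and 0.152). The chalcone isomerase gene TT5 (3.70, adjusted p = 0.084) and its helper CHIL (1.94, adjusted p = 0.089) missed the threshold, and so did the transporter gene TT12 (3.17, with an interval from -0.51 to 6.84).

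The list kept its direction, but its count moved with the samples. Without plate 4 it had 4 genes past the threshold, without the other plates in turn 5 to 8, and without the 38 nuclei with suspensor rule genes 9. Thinned to 100000 counts it had 5, without the plate block 4, and with the seed coat side drawn from nuclei with at least 3 rule genes (59 nuclei) 1. BAN, GSTF12 and LDOX passed in all 8 fits that left out 1 plate. TT7 lost the call in turn without plates 1, 2, 4 and 6, with adjusted p-values of up to 0.0954.

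**Figure D2:**
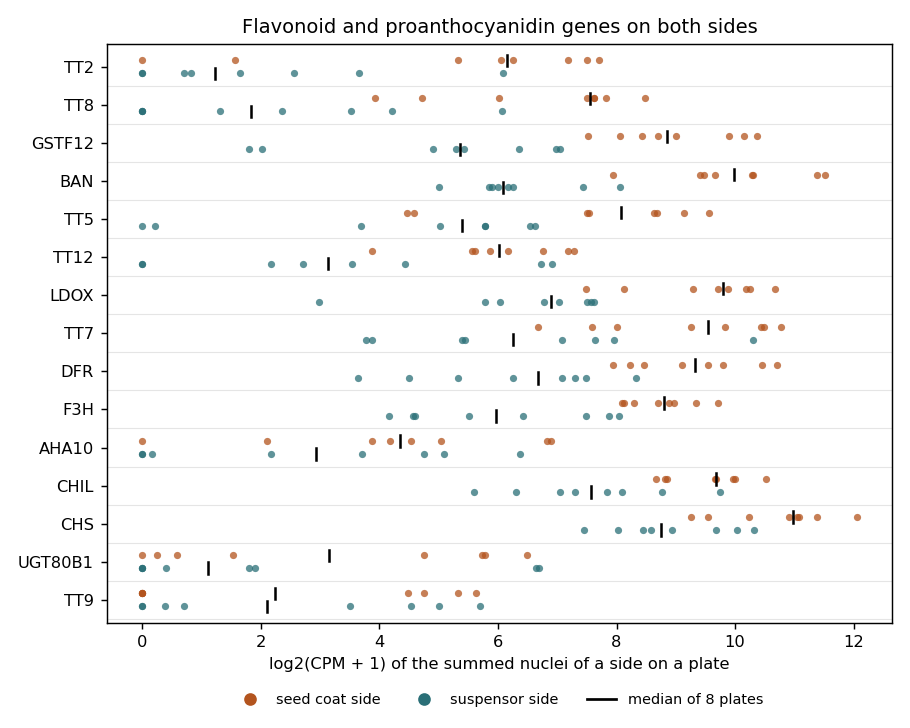
Level of 13 flavonoid genes and of the regulators TT2 and TT8, as log2(CPM + 1) of the summed nuclei of a side on a plate (x axis), 1 point per plate and a black tick at the median of 8 plates. GSTF12 and F3H show no overlap between the seed coat side and the suspensor side; AHA10, UGT80B1 and TT9 overlap widely.

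At the level of nuclei the flavonoid genes were present on both sides. The 13 tested genes summed to a median of 3886 CPM per nucleus on the seed coat side and 765 CPM on the suspensor side, against 1313 CPM in the other nuclei, and 9, 4 and 5 of them had reads in the median nucleus. Only 1 nucleus of the seed coat side and 3 of the suspensor side had none. The 62 seed coat side nuclei with under 3 suspensor rule genes had 5708 CPM, and the 38 with more had 2566 CPM. BAN had reads in 89 of 100 nuclei of the seed coat side, in 53 of 99 of the suspensor side and in 198 of 335 other nuclei, with median depths of 663553, 421775 and 398968 counts. Its share on the suspensor side was no higher than that of the other nuclei, and no expression is read from it, since free RNA was not measured.

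Of the regulators, TT8 (AT4G09820) was the only listed gene of the ovule and seed coat that passed, 1 of 15 tested. Its plate values were 14.1, 188 and 357 CPM against 0, 2.79 and 66.0 CPM, higher on every plate, by 5.69 ± 1.54 (SE; adjusted p = 0.048). The call was lost without plates 2, 3, 4, 5 and 7 in turn, with adjusted p-values of up to 0.189, and without the 38 nuclei with suspensor rule genes (0.0681). It had reads in 35, 7 and 41 nuclei of the seed coat side, the suspensor side and neither. TT2 (AT5G35550), its MYB partner, lay at 0, 70.3 and 207 CPM against 0, 1.45 and 66.7 CPM, and its difference was 5.91 ± 2.53 (SE; adjusted p = 0.364). TTG1, the third member of the complex, had reads in 20 and 17 nuclei and a difference of -1.36 with an interval from -5.94 to 3.21. The list's median was 3.71, with KNAT7 (7.70), MYB5 (7.87) and GL2 (4.67), regulators of the epidermal layer and of mucilage, above it and not past the threshold (adjusted p of 0.126 to 0.208).

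The bases upstream of the pathway genes were read for the motifs through which such factors act. The 200 bases before the annotated gene start in RefSeq TAIR10.1 were searched on both strands for the W-box (TTGACC or TTGACT) of WRKY factors, the RY element (CATGCA) of B3 factors, the G-box (CACGTG) of bHLH factors and a MYB core (CAACNG). They are shown for BAN, DFR and LDOX, called members of the pathway, and for TT8, with matches in capitals.
BAN: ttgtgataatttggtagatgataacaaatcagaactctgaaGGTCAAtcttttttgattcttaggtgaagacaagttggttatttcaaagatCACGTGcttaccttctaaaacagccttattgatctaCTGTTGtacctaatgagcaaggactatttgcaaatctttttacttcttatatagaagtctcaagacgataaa
DFR: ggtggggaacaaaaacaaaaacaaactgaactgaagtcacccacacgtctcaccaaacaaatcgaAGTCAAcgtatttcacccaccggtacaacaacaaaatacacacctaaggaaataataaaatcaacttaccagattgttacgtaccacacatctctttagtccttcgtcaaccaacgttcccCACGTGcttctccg
LDOX: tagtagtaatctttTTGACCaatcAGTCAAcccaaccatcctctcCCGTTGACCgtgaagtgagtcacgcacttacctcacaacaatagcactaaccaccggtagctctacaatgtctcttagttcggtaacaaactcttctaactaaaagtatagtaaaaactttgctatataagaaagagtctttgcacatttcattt
TT8: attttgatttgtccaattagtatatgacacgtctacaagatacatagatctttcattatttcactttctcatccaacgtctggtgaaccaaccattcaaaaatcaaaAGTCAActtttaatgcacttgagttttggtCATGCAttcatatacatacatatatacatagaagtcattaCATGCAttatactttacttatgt

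The BAN sequence (chr1:22792804-22793003, minus strand) held a W-box, a G-box that begins 108 bases before the gene start and a MYB core that begins 72 bases before it. The DFR sequence (chr5:17166033-17166232, minus strand) held a W-box and a G-box that begins 14 bases before the start. In the LDOX sequence (chr4:12006210-12006409, minus strand) 3 W-boxes were found, of which the one 152 bases before the start overlaps a MYB core. The TT8 sequence (chr4:6181681-6181880, plus strand) held a W-box and 2 RY elements. A G-box was present upstream of 3 of the 15 flavonoid genes and of 5.64% of 27443 protein-coding genes, and a MYB core upstream of 5 of 15 and of 16.6% of all. The W-box was found upstream of 5 of 15 and of 24.3% of all, and the RY element upstream of none and of 6.69% of all. These matches describe the letters and are no evidence of binding.

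The genes of largest difference on the seed coat side, among those of at least 50 CPM that were higher on every plate, came from several families. The first was AT4G21630, a subtilase, at 13.9, 116 and 327 CPM against 0, 0 and 0.637 CPM. It did not overlap between the sides, and the difference was 10.45 ± 1.99 (SE; adjusted p = 0.0018), with reads in 24 of 100 and 3 of 99 nuclei. AT3G26440, a predicted membrane protein of unknown function, lay at 41.6, 125 and 294 CPM against 0, 0.943 and 10.9 CPM, again without overlap (7.24 ± 1.59, SE; adjusted p = 0.0099). AT5G51105, a small ECA1-family secreted protein, lay at 96.5, 218 and 773 CPM against 1.06, 8.34 and 77.7 CPM (4.94 ± 0.95, SE; adjusted p = 0.0019). It had reads in 77 of 100 nuclei of the seed coat side, 22 of 99 of the suspensor side and 85 of 335 others. The bHLH gene AT4G00870 (8.34, adjusted p = 0.013) and AT1G56660, a protein of unknown function (4.98, adjusted p = 0.00054), had the same direction on all plates. Of the 24203 counts of AT1G56660 on the seed coat side, 11189 came from 1 nucleus. Without plate 2 the adjusted p of AT3G26440 was 0.0582 and that of AT4G00870 was 0.0615.

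All genes of this group also had reads in nuclei of neither side. Of the 335 such nuclei, AT4G21630 had reads in 27, AT3G26440 in 32, AT4G00870 in 16 and AT1G56660 in 48. None of these genes passed by edgeR on the seed coat side against those nuclei (adjusted p of 0.295 to 0.783). The CCCH zinc finger gene AT3G51950 (6.09 ± 1.31, SE; adjusted p = 0.0079) had reads in 54 of 100 and 9 of 99 nuclei and in 166 of 335 others, and it was lower on the suspensor side than in the other nuclei by 6.14 (adjusted p = 0.0035). The protein kinase gene AT2G18890 (8.96, adjusted p = 0.039) had reads in 28, 2 and 111 nuclei, and AT1G04150, of a family of C2-domain membrane proteins (8.25, adjusted p = 0.048), in 25, 3 and 89. AT5G64870, a flotillin-like membrane protein (7.90, adjusted p = 0.027), had reads in 25, 4 and 24 nuclei. The calls were lost in turn without plates 1, 3, 4, 6 and 7 for AT2G18890, without plates 1, 3, 4, 7 and 8 for AT1G04150 and without plates 1, 2, 4, 5 and 6 for AT5G64870 (adjusted p of up to 0.152, 0.149 and 0.102). Without the 38 nuclei with suspensor rule genes the adjusted p of AT1G04150 was 0.0756.

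Of 6 tested lipid transfer proteins, small proteins that carry lipids to the cell surface, LTP6 and LTP3 were higher on the seed coat side and none was lower. LTP6 (AT3G08770) was read in nearly every nucleus, 98 of 100 and 98 of 99, at 4149, 5139 and 26629 CPM against 486, 1326 and 3822 CPM. Its plate values did not overlap, and its difference of 2.29 ± 0.21 (SE; adjusted p = 2e-10) had the smallest p of all genes tested. LTP3 (AT5G59320) was higher by 3.83 ± 0.92 (SE; adjusted p = 0.022), a call lost without plates 1, 3, 4 and 6 in turn (adjusted p of up to 0.0731). Of 8 expansins, which loosen cell walls, EXPA25 was higher on the seed coat side (9.05, adjusted p = 0.039) and EXPA14 on the suspensor side. EXPA25 lost its call without plates 2, 3, 4, 5, 6 and 7 in turn (adjusted p of up to 0.203). EXPA14 (AT5G56320) lay at 0, 29.8 and 286 CPM on the seed coat side and at 71.4, 624 and 1265 CPM on the suspensor side, a difference of -5.50 ± 1.17 (SE; adjusted p = 0.0068). The peptide transporter gene PTR5 (AT5G01180), 1 of 6 tested in its family, was higher on the seed coat side by 5.04 ± 1.28 (SE; adjusted p = 0.032), and was lost without plates 1 and 4 (adjusted p of up to 0.116). None of the 9 tested mucilage and cell wall genes and none of the 5 suberin and cutin genes passed by edgeR at the adjusted threshold, with medians of 0.35 and 3.03, and 1 and 0 of them had an unadjusted p under 0.05.

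On the suspensor side, 3 of 16 tested regulators of the suspensor and zygote were higher and none was lower, with a median log2 difference, seed coat minus suspensor, of -1.19. WOX9 (AT2G33880), the homeobox gene that acts with WOX8 in the basal lineage, ranged from 19.4 through 201 to 652 CPM on the suspensor side and from 0 through 1.01 to 162 CPM on the seed coat side. The suspensor side was higher on every plate, although the ranges overlapped, by a difference of -6.01 ± 1.44 (SE; adjusted p = 0.021). It had reads in 39 of 99 and 25 of 100 nuclei. Of the latter 25 nuclei, 21 were on plate 4, and 16 had at least 3 suspensor rule genes. PIN7 (AT1G23080), the auxin efflux carrier of the suspensor, lay at 112, 500 and 765 CPM against 0, 76.9 and 340 CPM (-2.96 ± 0.75, SE; adjusted p = 0.031). VRN1 (AT3G18990), a DNA-binding B3 protein, lay at 371, 690 and 916 CPM against 58.5, 135 and 332 CPM, without overlap (-2.15 ± 0.55, SE; adjusted p = 0.035). PIN7 lost its call without plates 2, 3 and 7 in turn and VRN1 without plates 2, 3, 4 and 5 (adjusted p of up to 0.0878 and 0.143), and without plate 2 or plate 3 the list had 1 gene past the threshold.

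On the seed coat side PIN7 had reads in 29 of the 38 nuclei with at least 3 suspensor rule genes, in 10 of the 62 with fewer, and in 51 of 99 nuclei of the suspensor side. The 38 were picked by suspensor rule genes, so no difference from the 62 is read. Of the 8 genes that the study localized in the suspensor, a list it chose on these nuclei and so no independent evidence, all 8 had a negative fitted difference, and none passed by edgeR at the adjusted threshold, while 5 had an unadjusted p under 0.05. The protease gene CEP1 (AT5G50260), of developmental cell death, lay at 66.6, 431 and 1008 CPM on the suspensor side against 1.18, 101 and 180 CPM (-2.51 ± 0.77, SE; adjusted p = 0.098).

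**Figure D3:**
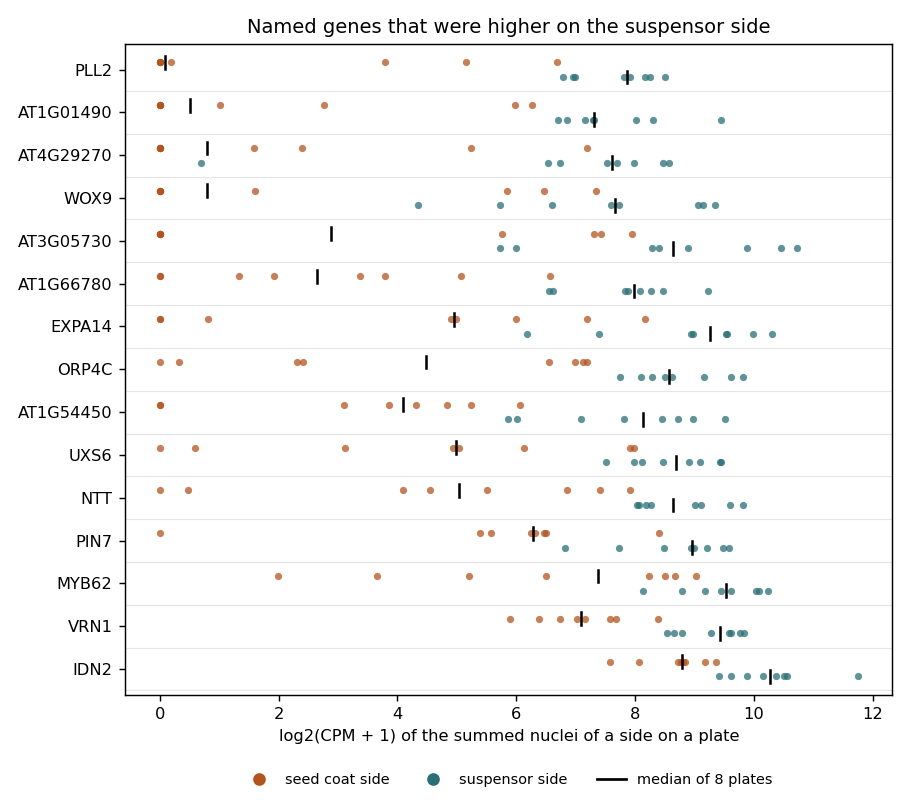
Level of the 15 named genes that were higher on the suspensor side, as log2(CPM + 1) of the summed nuclei of a side on a plate (x axis), 1 point per plate and a black tick at the median of 8 plates. Plates with no read on the seed coat side lie at 0, as for PLL2 and AT1G01490; NTT, VRN1, IDN2 and ORP4C show no overlap between the sides.

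The genes of largest difference on the suspensor side, by the same rule as above, were led by PLL2 (AT5G02400), a phosphatase related to the stem cell regulator POLTERGEIST. It lay at 110, 233 and 361 CPM against 0, 0.0656 and 101 CPM, without overlap (-8.44 ± 1.82, SE; adjusted p = 0.0079), and had reads in 40 of 99 and 16 of 100 nuclei. AT1G01490, a heavy metal-associated domain protein, followed at 104, 157 and 701 CPM against 0, 0.504 and 75.5 CPM (-7.87 ± 1.68, SE; adjusted p = 0.0069). ORP4C (AT5G57240), an oxysterol-binding protein of lipid exchange, had reads in 73 of 99 and 31 of 100 nuclei, at 214, 379 and 899 CPM against 0, 48.6 and 145 CPM (-4.81 ± 1.12, SE; adjusted p = 0.017). UXS6 (AT2G28760), which makes UDP-xylose for cell wall polymers, had reads in 77 and 42 nuclei (-4.19 ± 1.06, SE; adjusted p = 0.031), and was lost without plates 1, 2, 3, 5 and 7 in turn (adjusted p of up to 0.0824). A defensin-like gene, AT3G05730, was higher on the suspensor side by -5.81 on the seed coat minus suspensor scale (adjusted p = 0.015), the MATE transporter gene AT1G66780 by -5.65 (0.0067), and the acid phosphatase gene AT4G29270 by -7.19 (0.034). The last was lost without plates 1, 2, 3, 5 and 6 in turn (adjusted p of up to 0.0976).

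NTT (AT3G57670), a zinc finger factor known from the transmitting tract and from the founder cells of the root, belongs to the list of columella and quiescent centre markers, of which it was the only 1 of 8 tested that passed. Its plate values were 260, 411 and 903 CPM on the suspensor side and 0, 33.5 and 241 CPM on the seed coat side, without overlap, a difference of -4.10 ± 1.02 (SE; adjusted p = 0.027), lost without plates 1 and 7 (adjusted p of up to 0.0703). AT1G54450, a calcium-binding EF-hand protein, lay at 57.4, 286 and 730 CPM against 0, 16.2 and 65.9 CPM (-4.50 ± 1.07, SE; adjusted p = 0.021), and its adjusted p was 0.058 without plate 4. MYB62 (AT1G68320), the only one of 21 tested MYB factors past the threshold, had reads in 79 of 99 and 42 of 100 nuclei (-2.86 ± 0.65, SE; adjusted p = 0.015). The upstream sequences of NTT and AT1G54450 are shown as examples of the group that hold W-boxes, again with matches in capitals.
NTT: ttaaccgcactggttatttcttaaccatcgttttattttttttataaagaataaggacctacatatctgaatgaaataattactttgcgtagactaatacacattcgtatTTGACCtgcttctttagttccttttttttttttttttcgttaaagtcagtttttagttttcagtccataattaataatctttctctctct
AT1G54450: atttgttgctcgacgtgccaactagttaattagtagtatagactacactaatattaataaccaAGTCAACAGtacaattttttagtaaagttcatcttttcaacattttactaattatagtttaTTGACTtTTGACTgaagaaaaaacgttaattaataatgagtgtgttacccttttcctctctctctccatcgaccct

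The NTT sequence (chr3:21370557-21370756, plus strand) held 1 W-box, 90 bases before the gene start. That of AT1G54450 (chr1:20339770-20339969, minus strand) held 3, of which the one 137 bases before the start overlaps a MYB core and the other two lie side by side. A W-box was found upstream of 4 of the 10 genes named for the largest differences on the suspensor side and of 4 of the 10 on the seed coat side, beside 24.3% of all protein-coding genes. No match was found upstream of WOX9, PLL2 or ORP4C.

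Among genes of the DNA methylation pathways 1 passed, on the suspensor side. Of 17 tested genes of RNA-directed DNA methylation, in which small RNAs guide methylation of matching DNA, 13 had a negative and 4 a positive fitted difference, with a median of -1.59. The gene that passed was IDN2 (AT3G48670), an RNA-binding protein of this pathway, at 680, 1235 and 3438.5 CPM on the suspensor side against 191, 442 and 662 CPM, without overlap (-1.59 ± 0.42, SE; adjusted p = 0.043). Its call was lost without plates 1, 3, 4, 6, 7 and 8 in turn (adjusted p of up to 0.141). It was also read widely, in 94 of 99 and 74 of 100 nuclei. Reads were found in 37 of the 38 seed coat side nuclei with at least 3 suspensor rule genes and in 37 of the 62 with fewer. That split was made on rule genes, so no difference is read from it. AGO4 (AT2G27040), the Argonaute of the pathway, had a mean of 427 CPM on the seed coat side and 391 CPM on the suspensor side, with a difference of 0.18 and an interval from -0.86 to 1.22.

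All 7 tested genes of DNA demethylation, DML3 not among them, had negative fitted differences, with a median of -0.79, and none passed by edgeR at the adjusted threshold, while 3 had an unadjusted p under 0.05. DML2 (AT3G10010), a glycosylase related to DML3, came nearest, at 513, 766 and 1219 CPM on the suspensor side against 14.5, 276 and 339 CPM, without overlap (-1.86 ± 0.53, SE; adjusted p = 0.065). ROS1 (AT2G36490) differed by -1.73 (adjusted p = 0.22) and DME (AT5G04560) by -1.17 (adjusted p = 0.37). The 7 genes summed to a median of 2406 CPM per nucleus on the suspensor side and 610 CPM in the nuclei of neither side. On the seed coat side the median was 1762 CPM in the 38 nuclei with at least 3 suspensor rule genes and 568 CPM in the 62 with fewer. Both sets were split on rule genes, DML3 among them, so no difference between them is read.

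Some genes of the cell cycle and of the embryo proper had reads on the seed coat side and in the other nuclei, and in few nuclei of the suspensor side. FZR3 (AT5G13840), an activator of the anaphase-promoting complex, had reads in 35 of 100, 6 of 99 and 108 of 335 nuclei. On the seed coat side 1 nucleus gave 24183 of its 55977 counts. Its plate values were 2.75, 225 and 2713 CPM against 0, 0.152 and 46.6 CPM, higher on 7 of 8 plates, by 8.09 ± 1.33 (SE; adjusted p = 0.00025). Set against the other nuclei, FZR3 differed by -9.24 on the suspensor side (adjusted p = 2.4e-05) and by -1.77 on the seed coat side (adjusted p = 0.74), 2 comparisons that share the other nuclei. CDC20.2 (AT4G33260), which also activates that complex, was higher on the seed coat side by 6.89 ± 1.64 (SE; adjusted p = 0.021), lost without plates 3 and 4 (adjusted p of up to 0.0915). It had reads in 28, 7 and 68 nuclei, and 1 nucleus gave 15967 of its 26943 counts on the seed coat side. It was 1 of 6 tested mitosis genes to pass, and the list's median was -0.99. None of 13 embryo proper markers passed by edgeR at the adjusted threshold, with 4 at an unadjusted p under 0.05. Fitted differences were positive for 9 of the 13 and negative for 4. The polarity gene KAN (AT5G16560) had the largest, 8.48 (adjusted p = 0.065), with reads in 16, 1 and 59 nuclei. Other markers were read as often on the suspensor side, such as PDF2 in 73 of 100 and 77 of 99 nuclei and WOX2 in 18 and 21. The part of embryo proper transcripts in these differences was not tested.

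**Figure D4:**
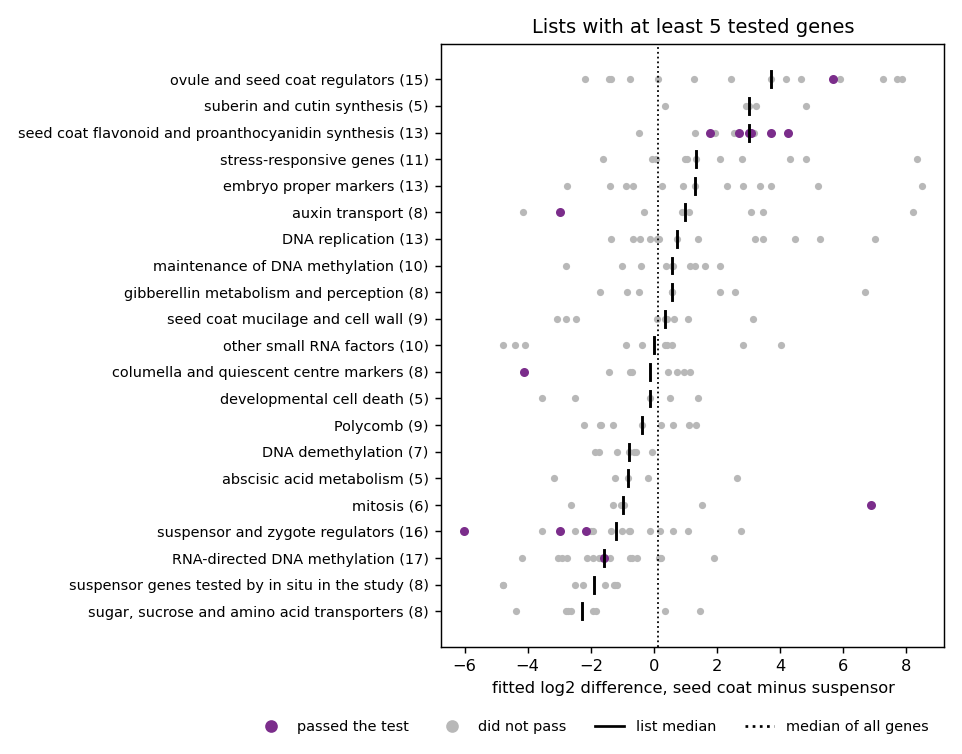
Fitted log2 difference, seed coat minus suspensor (x axis), of every tested gene of the lists with at least 5 tested genes (number in brackets), with genes past the threshold in purple, list medians as black ticks and the median of all genes as a dotted line at 0.13. The flavonoid list lies highest among those with several calls, with 7 of 13 past the threshold.

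Both sides were also set against the nuclei of neither side. On the suspensor side 112 of 13351 genes were higher (0.839%) and 562 lower (4.21%), 5.05% in either direction, while on the seed coat side 2 of 14408 were higher (0.0139%) and 4 lower (0.0278%), 0.0416% in either direction. These counts were not tested against each other. Of the 71 genes higher on the seed coat side than on the suspensor side, 2 were above the other nuclei on the seed coat side. On the suspensor side 27 of the 71 were below the other nuclei, with 64 tested there. Of the 62 genes higher on the suspensor side, 36 were above the other nuclei there, and 1 was below them on the seed coat side. The comparisons share nuclei, so these numbers are a description. The median log2 difference was -1.19 for the suspensor side and -0.93 for the seed coat side, so that single values are to be read against these shifts. The 2 genes higher on the seed coat side were LTP6, by 1.07 ± 0.19 (SE; adjusted p = 0.0089), and AT1G56100, a pectin methylesterase inhibitor, by 1.30 ± 0.24 (SE; adjusted p = 0.013). On the suspensor side the same genes differed from the other nuclei by -1.13 (adjusted p = 0.0067) and -1.29 (adjusted p = 0.011). The rule for shared genes asked for a gene above the other nuclei on both sides, and with these 2 values no gene met it. BAN differed by 1.64 on the seed coat side (adjusted p = 0.16) and by -2.10 on the suspensor side (adjusted p = 0.02). PIN7 differed by -0.48 (adjusted p = 0.92) and 2.47 (adjusted p = 0.0065), VRN1 by -0.15 (0.96) and 2.07 (0.004), NTT by -1.78 (0.71) and 2.30 (0.0093), and MYB62 by -0.38 (0.93) and 2.58 (0.0032). WOX9 passed the test on neither side, with differences of -6.65 (adjusted p = 0.295) and 0.16 (adjusted p = 0.93). The sugar exporter gene SWEET12 (AT5G23660), higher on the suspensor side than in the other nuclei by 2.94 (adjusted p = 0.0049), had reads in 65 of 99 and 35 of 100 nuclei, and between the sides it differed by -2.63 (adjusted p = 0.068).

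What the sides shared is given by genes read widely on both. Reads were found in at least 50 nuclei of each side for 530 genes, 4.69% of those tested. Of these, 10 were higher and 22 lower on the seed coat side, and 498 did not pass. A missed threshold does not show equal levels, so the intervals were used: in 223 of the 530 genes the 95% interval of the log2 difference lay within -2 to 2, where 3.17% of all genes tested had one that narrow, and in 12 it lay within -1 to 1, as in 0.186% of all genes tested. Genes read widely have narrower intervals by construction.

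Only some of the listed genes read this widely on both sides are given here, with the following levels. The chromatin gene IDM1 (AT3G14980), a histone acetyltransferase that assists demethylation, lay at 295 and 462 CPM (means of the seed coat side and the suspensor side; interval from -1.72 to 0.45). KTF1, a partner of AGO4, lay at 391 and 645 CPM (interval from -1.68 to 0.28). AGO1, the main Argonaute of microRNAs, lay at 316 and 211 CPM (interval from -0.63 to 1.77), and DCL1, which cuts microRNAs from their precursors, at 168 and 129 CPM (interval from -1.29 to 2.15). FDH, a fatty acid elongase gene of the epidermis, lay at 593 and 512 CPM, with reads in 71 of 100 and 63 of 99 nuclei and an interval from -0.69 to 1.22. The epidermal homeobox gene PDF2 lay at 336 and 598 CPM (interval from -2.02 to 0.25), and LUH, a corepressor that also acts in mucilage release, at 247 and 431 CPM (interval from -1.88 to 0.37). ARF2, an auxin response factor that limits seed size through the integuments, was read in 83 of 100 and 85 of 99 nuclei, at 163 and 440 CPM (interval from -2.66 to -0.21, adjusted p = 0.36). The seed coat protease gene DELTA-VPE, known for cell death in the inner integument, lay at 929 and 419 CPM with reads in 92 of 100 and 69 of 99 nuclei (interval from 0.34 to 2.48, adjusted p = 0.24). It also had reads in 229 of 335 other nuclei.

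A small set of genes had reads in every retained nucleus, 9 of the 530. SHP1 (AT3G58780), a MADS-box factor of the ovule and fruit, was one of them, in 100, 99 and 335 nuclei, at 461, 1340.4 and 2825 CPM on the seed coat side and 262, 1376 and 3310.0 CPM on the suspensor side. Its difference was 0.13 ± 0.33 (SE), with an interval from -0.54 to 0.80. SHP1 lay at 2295, 2788 and 2825 CPM on plates 3, 7 and 8 of the seed coat side. The suspensor side had 2374, 2826 and 3310 CPM there. On plates 4 and 6 the values were 479.9 and 460.6 against 431.6 and 465.8 CPM. On plates 1, 2 and 5 they were 697.3, 1561 and 1119 against 1671, 1080 and 261.9 CPM. Whether nuclei made the transcripts of this set themselves was not tested, so no expression is read from reads in every nucleus. LCR11 (AT4G11485), a cysteine-rich peptide gene, was another gene of this set, at means of 1203 and 1603 CPM (interval from -0.97 to 0.34). TPPI (AT5G10100), a trehalose phosphatase gene, differed by 0.01 (interval from -0.69 to 0.70). AT3G06355, a gene of this set at a far higher level, passed the test, at a mean of 81543 CPM on the seed coat side and 43372 CPM on the suspensor side (0.94 ± 0.13, SE; adjusted p = 9.2e-06). DESeq2 did not call it (adjusted p = 0.09). By edgeR it was lower than in the other nuclei on both sides, by -0.91 on the seed coat side (adjusted p = 1.4e-09) and -1.79 on the suspensor side (1.1e-08). The medians over all genes were -0.93 and -1.19. Whether these reads came from the annotated gene was not tested. TPPI and the other genes of this set were named after their values were seen, apart from SHP1 and LCR11.

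**Figure D5:**
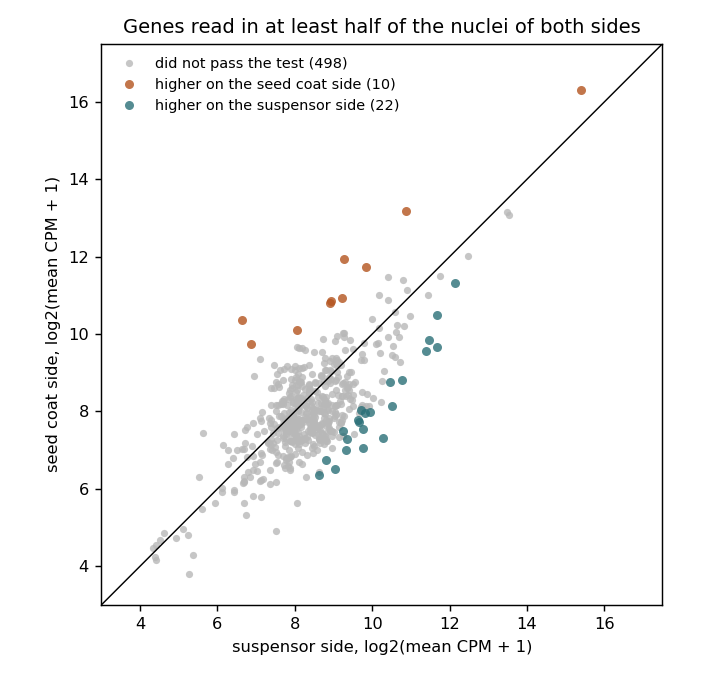
Mean level over 8 plates of the 530 genes read in at least 50 nuclei of each side, on the suspensor side (x axis) and the seed coat side (y axis), as log2(mean CPM + 1), with the diagonal as a line of equal level. The 10 genes higher on the seed coat side lie above the line and the 22 higher on the suspensor side below it; the other 498 genes did not pass the test.

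Within the genes read widely on both sides, some of the firmest differences were between plate sums, which pool the nuclei of a side. SYTC (AT5G04220), a synaptotagmin-like protein that binds calcium and lipids, had reads in 97 of 99 and 74 of 100 nuclei, at 2206, 3345 and 3966 CPM on the suspensor side and 406, 849 and 1320 CPM on the seed coat side, without overlap (-2.09 ± 0.30, SE; adjusted p = 2e-05). In the 38 seed coat side nuclei with at least 3 suspensor rule genes its median was 1367 CPM, with reads in 36. In the other 62 it was 3.27 CPM, with reads in 38. These sets were split on rule genes, so no difference between them is read. The suspensor side had a median of 1866 CPM per nucleus. SYTC was named after its values were seen. LPAT2 (AT3G57650), an acyltransferase of phospholipid synthesis, chosen in the same way, lay at 928, 1802 and 2236 CPM against 197, 335 and 1036 CPM, lower on every plate although the ranges met (-2.15 ± 0.38, SE; adjusted p = 0.00062). On the seed coat side AT1G56100 lay at 1378, 3893 and 6847 CPM against 142, 616 and 980 CPM, without overlap (2.67 ± 0.34, SE; adjusted p = 1.7e-06).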

How the data were processed

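Per the labels and the study's methods, reads were trimmed with cutadapt 2.6 and quantified with kallisto against TAIR10 transcripts. The authors deposited, per plate, estimated counts per gene and nucleus as whole numbers; how transcripts were summed is not given in the sources used here. Index tables were not used. Reads carry no molecular identifiers, so p-values rest on plates. Nuclei were sorted singly. Doublets were not called, so their part in nuclei with transcripts of both sides was not tested, and free RNA was not corrected.

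Members and gene lists (391 entries in 24 lists, 377 matched to a RefSeq TAIR10.1 locus by symbol) were chosen with earlier results of these data known. Counts of nuclear genes without tRNA, rRNA, snRNA and snoRNA loci (86.7% of counts) were summed per side and plate, 2583125 to 28852772 per sum. Sums were tested, without the 12 rule genes, with edgeR 4.0.16 (filterByExpr, TMM, glmQLFit, glmQLFTest; R 4.3.3), plate as a block, two-sided, with Benjamini-Hochberg adjustment over all genes. Standard errors and 95% intervals come from the fitted difference and its F statistic. The plate number in the labels pairs the sides; across genes, deviations of both sides from their means correlated at -0.00819 to 0.0525 within a plate, and 4 of 8 correlated best with their own. Named genes were, in each direction, the 10 largest differences among called genes of at least 50 CPM with 1 direction on 8 plates, and up to 4 called members of each list or family. List members read in at least 50 nuclei of each side were named in part only. Other genes were named after their values were seen. Plate medians were compared by exact sign-flip permutation. Alternatives used DESeq2 1.42.0, limma 3.58.1 on log2(CPM + 1) with a pseudocount of 1, other filters, limits and members, and each plate left out. The test was tried on simulated counts. A result of a listed gene is not reported here.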

Additional observations from a re-analysis of the deposited data

Results flagged for a closer look

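Among 72 sets of 8 plate values looked at (2 shares of nuclei and 35 named genes on both sides), 9 held a plate that stood apart, with a gap to the nearest plate that took most of the whole range. At the nominal level of the criterion, chance gives such a plate in about 1 of 20 sets. The share of retained nuclei on the seed coat side was 55.4% on plate 4 and at most 17.8% on the others. On the suspensor side, on the log2(CPM + 1) scale, the protein kinase gene AT2G18890 reached 7.49 on 1 plate, beside 3.54 on the next, the bHLH gene AT4G00870 reached 6.37 beside 2.02, and AT3G26440 reached 3.58 beside 1.34. The expansin gene EXPA25 (AT5G39300) reached 2.22 beside 0.726. Low plates on that side were seen for the acid phosphatase gene AT4G29270, at 0.685 beside 6.53, and for LDOX (AT4G22880), at 2.98 beside 5.77. On the seed coat side PIN7 (AT1G23080) and PTR5 (AT5G01180) were at 0 on 1 plate each, beside 5.39 and 6.6 on the next.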

How the results depend on the processing

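All 35 named genes kept their direction under each alternative that could be fitted. Of the 71 and 62 genes called higher and lower on the seed coat side, 70 and 61 were also called by DESeq2, which called 1245 and 839, and 70 and 61 by limma, which called 1416 and 307. Without the replicate block the counts were 17 and 7, and 27 of the 35 named genes lost their call. Without a filter on low counts 103 were lower. With the seed coat side drawn from 3 rule genes (59 nuclei) they were 11 and 102, with the suspensor side drawn from 4 (70 nuclei) 120 were higher, with equal numbers of nuclei per plate they were 141 and 40, and without seed coat side nuclei with 3 or more suspensor rule genes (62 left) they were 126 and 283. Leaving out 1 plate gave 34 to 100 and 36 to 78; without plates 2, 4 and 7, 41, 34 and 47 were higher, and without plate 3, 36 were lower. Against the other nuclei, the 2 genes higher on the seed coat side became 289 with DESeq2, 20 without the filter, 0 without the block (244 at an unadjusted p under 0.05), 1238 with limma, 9 without TMM, 6 and 5 with stricter and looser limits on nuclei, 24 against nuclei with at most 1 suspensor rule gene, and 1 to 10 with 1 plate left out. The 112 genes higher on the suspensor side became 596 with DESeq2, 1328 with limma, 67 with stricter limits (70 nuclei), 282 against that narrower set of other nuclei, and 67 to 125 with 1 plate left out. Under stricter limits the excess of counts on the seed coat side was 164700 and that of features 551, and neither passed; thinned, the latter was 763. With 1 plate left out they were 185270 to 247580 and 783 to 1104, where 7 plates cannot give less than 0.0156 before adjustment, and the chloroplast excess was 0.522 to 0.848 percentage points.

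Sums of 5 to 46 nuclei set the precision: genes read in few nuclei have wide intervals, and a fitted log2 difference of a gene absent from several plates exceeds the ratio of its means. Of the 71 genes higher on the seed coat side, 34 had reads in under 10 suspensor side nuclei, so their size is uncertain. Plate 4 gave 46 of the 100 seed coat side nuclei.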
